A study of Mus musculus with 12 samples.

Results

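The genes described here are 9 effector genes of the mature adipocyte, the fat cell that stores and releases lipid: Fabp4, Lpl, Plin1, Adipoq, Cd36, Lep, Cfd, Fasn and Scd1. They are 9 of the 21851 protein-coding genes of the GENCODE annotation, and they were chosen by name, with earlier results of these data known. Their chromatin was read in mouse mesenchymal stem cells (MSCs), stromal stem cells that can form bone, cartilage and fat, from young mice aged 3 to 5 months and old mice aged 18 to 22 months. Cells of both ages were grown at 2% oxygen. CUT&RUN, in which an antibody directs a nuclease to a chromatin mark and the released DNA is sequenced, was performed for H3K27ac, the acetylation of lysine 27 of histone H3, and for H3K27me3, the trimethylation of that residue. There were 3 Young and 3 Old libraries per mark, 12 in all, and the labels gave no strain, sex or treatment and did not say whether the samples of an age came from separate animals, so that p-values measure the spread between these samples only. A region of the deposited tables was counted for a gene when it overlapped the gene body extended by 50 kb on each side, its window, by at least 1 bp. This gave 31 of the 31617 H3K27ac regions and 28 of the 28047 H3K27me3 regions, and each of the 9 genes had at least 1 region of each mark.

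H3K27ac marks active promoters and enhancers, whereas H3K27me3 is laid down by Polycomb repressive complex 2 and covers genes that are kept silent. Lysine 27 cannot carry both modifications on the same histone tail. Adipocyte genes are commonly silent in MSCs and are switched on during adipogenesis, when PPARγ and C/EBP factors occupy their promoters and enhancers. The genes fall into groups by role. Lpl (lipoprotein lipase), Cd36 (a fatty acid transporter) and Fabp4 (a fatty acid binding protein) bring lipid into the cell, and Plin1 (perilipin 1) coats the lipid droplet. Adipoq (adiponectin), Lep (leptin) and Cfd (adipsin, complement factor D) are secreted, while Fasn (fatty acid synthase) and Scd1 (stearoyl-CoA desaturase) make and desaturate fatty acids. The comparisons asked which mark lay at each gene and whether the marks differed between ages.

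RefSeq promoter sequences (GRCm38.p6) were matched for 6 of the 9 genes, namely Plin1, Adipoq, Cd36, Lep, Cfd and Fasn. The 250 bases before the start site are printed for the 3 genes that show the range of CpG content, since CpG-rich and CpG-poor promoters are bound by different chromatin machinery. They run 5′ to 3′ on the strand of the gene and capitals mark each CpG. The Fasn stretch lies at chr11:120824548-120824797 on the minus strand, that of Lep at chr6:29059971-29060220 on the plus strand and that of Adipoq at chr16:23146286-23146535 on the plus strand.
Fasn: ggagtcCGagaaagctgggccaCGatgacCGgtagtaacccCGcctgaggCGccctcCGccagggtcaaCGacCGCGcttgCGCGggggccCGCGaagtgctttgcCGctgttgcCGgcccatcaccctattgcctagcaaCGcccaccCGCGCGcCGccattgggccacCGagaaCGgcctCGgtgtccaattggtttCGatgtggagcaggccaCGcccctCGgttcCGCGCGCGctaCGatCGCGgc
Lep: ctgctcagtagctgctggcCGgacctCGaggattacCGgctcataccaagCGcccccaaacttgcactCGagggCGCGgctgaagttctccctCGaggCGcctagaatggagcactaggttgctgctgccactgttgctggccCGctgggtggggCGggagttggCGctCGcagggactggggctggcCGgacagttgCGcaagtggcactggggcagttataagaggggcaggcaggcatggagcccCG
Adipoq: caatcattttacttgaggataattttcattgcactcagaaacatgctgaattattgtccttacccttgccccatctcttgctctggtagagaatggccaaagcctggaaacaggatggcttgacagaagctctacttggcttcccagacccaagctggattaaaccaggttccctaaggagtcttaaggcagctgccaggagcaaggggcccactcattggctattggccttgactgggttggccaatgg
Fasn held 33 CpGs, Lep 16 and Adipoq 0, against a median of 6 over the 32851 promoters of the table. The Cd36, Cfd and Plin1 stretches held 3, 2 and 1 CpGs. The ratio of observed to expected CpGs was 1.11 in Fasn and 0.606 in Lep, and at most 0.258 in the other 4, against a median of 0.374. The Fasn stretch lay inside an H3K27ac region and the other 5 lay inside H3K27me3 regions, with Lep the CpG-rich promoter among these.

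Letters of known motifs were searched on both strands of these 250 bases as a description. The C/EBP site, TTGCNNAA, was found in Plin1 as TTGCCTAA and TTGCCCAA, with their last bases 180 and 51 bases before the start site, and in Lep as TTGCGCAA, 48 bases before it, where both strands match the same letters. Over all promoters 9.56% held it. The TATA box TATAAA (12.4% of all promoters), the E-box CACGTG (6.02%), the sterol response element TCACNCCAC (1.05%) and the peroxisome proliferator response element AGGTCANAGGTCA (0.0335%) were not among the letters of these 6 windows, and no matches overlapped another motif.

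At the start sites, the 9 genes divided by mark. A region within 1 kb of a start site carried H3K27ac alone at Fabp4, Fasn and Scd1, both marks at Lpl, and H3K27me3 alone at Plin1, Adipoq, Cd36, Lep and Cfd. Thus 3 of 9 were H3K27ac only, 1 of 9 had both marks and 5 of 9 were H3K27me3 only. Over all protein-coding genes, 44.6% had H3K27ac only, 9.02% both, 24.9% H3K27me3 only and 21.4% neither. The 3 secreted products and the droplet coat protein were in the H3K27me3 group, and both enzymes of fatty acid synthesis were in the H3K27ac group. The uptake genes were split, with H3K27ac only at Fabp4, both marks at Lpl and H3K27me3 only at Cd36. The same reading of marker genes gave H3K27ac at the start site of 8 of 8 MSC markers, of 2 of 7 blood markers and of 1 of 5 endothelial markers. Of 5 mature adipocyte markers, 0 had H3K27ac and 5 had H3K27me3, but 4 of them (Adipoq, Plin1, Lep and Cfd) are among the 9 genes, the other being Cidec. How far cells of other types were present was not tested.

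**Figure D1:**
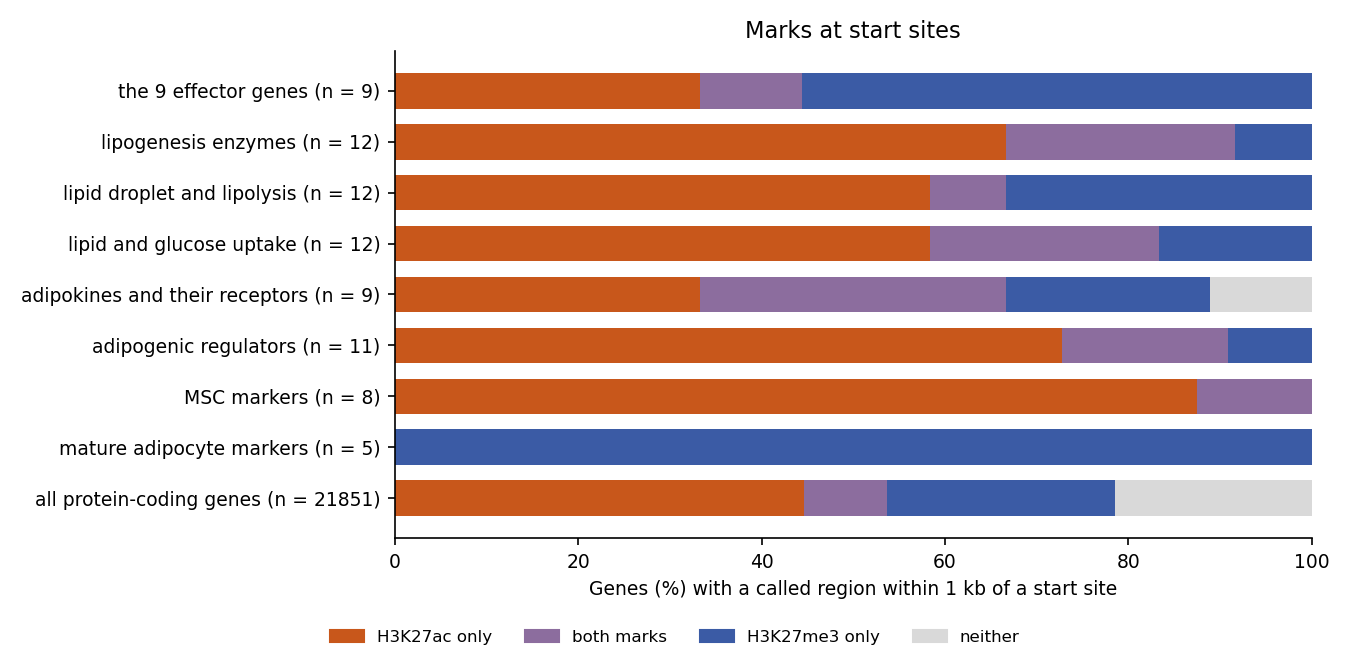
Share of genes (%, horizontal axis) with a called region of H3K27ac only, both marks, H3K27me3 only or neither within 1 kb of a start site, for the 9 effector genes, the related lists and all protein-coding genes. H3K27me3 only covers 55.6% of the effector genes and 24.9% of all protein-coding genes.

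The windows differed in how the marks were laid out. Of the 31 H3K27ac regions, 4 lay at start sites of the 9 genes and 26 lay outside the gene bodies, 7 of these over the start site of another gene. Among them, the 31.0 kb region upstream of Adipoq covered the start sites of Eif4a2 and Rfc4, and the 35.0 kb region downstream of Plin1 covered that of Kif7, so that much of the H3K27ac in these windows lay at neighbouring genes. Of the 28 H3K27me3 regions, 8 lay at start sites of 6 of the genes and 17 lay outside the gene bodies. The Cd36 window held a row of 10 separate H3K27me3 regions, from 1.5 to 20.0 kb long, over the gene and on both sides of it. Lep lay in a single domain of 187 kb and Lpl in a single domain of 123 kb. A domain of 113 kb over Wnt8b ended 5.29 kb from the Scd1 start site. Regions of 100 kb or more made up 3.21% of all H3K27me3 regions. At Fasn, H3K27me3 was limited to a 2.5 kb region 14.0 kb upstream.

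**Figure D2:**
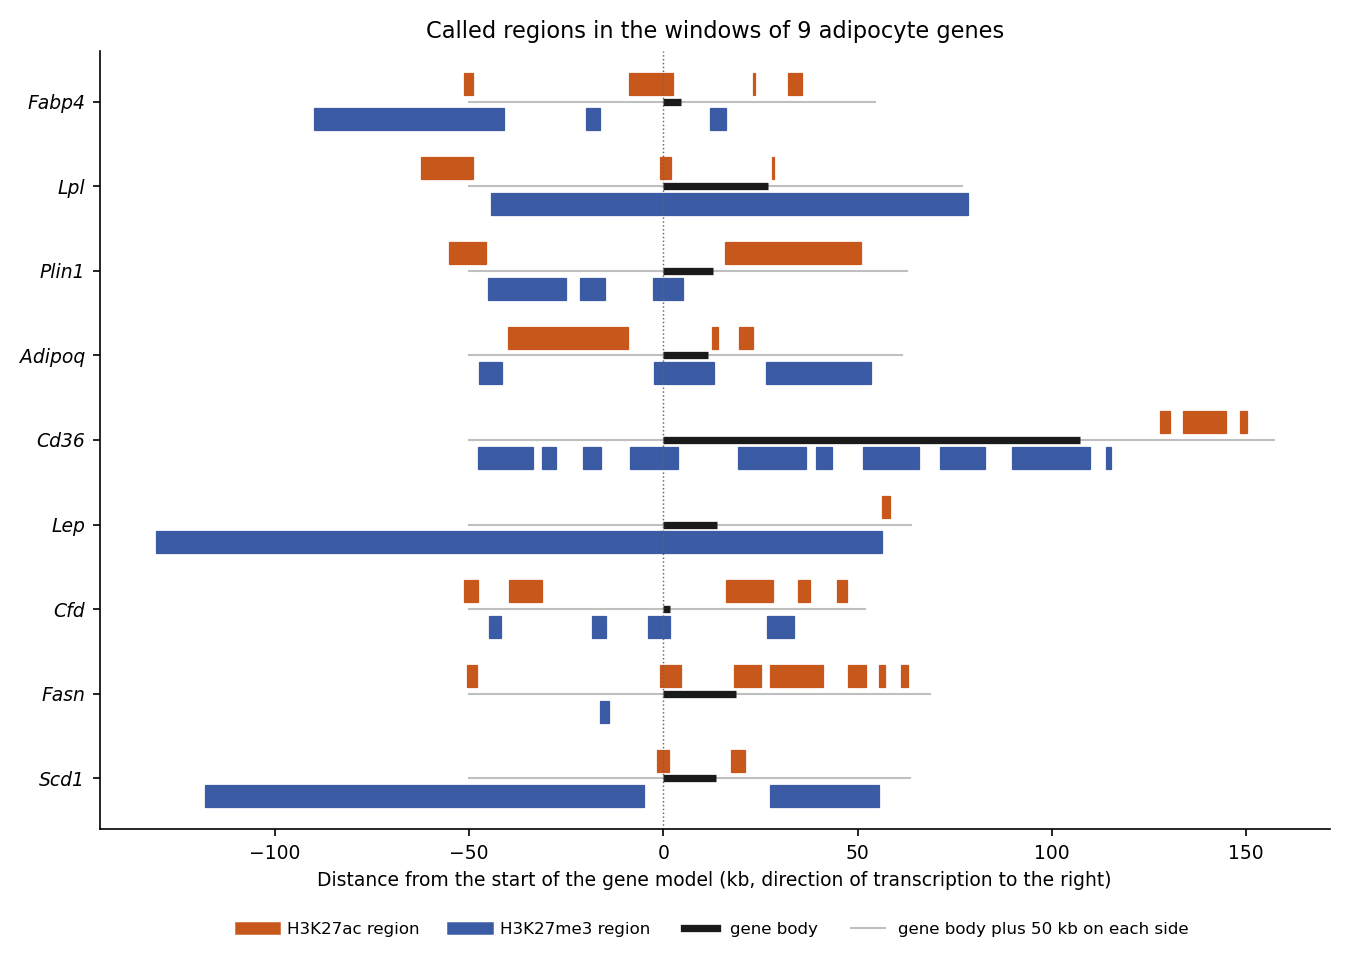
Position of each H3K27ac region (orange, above the line) and H3K27me3 region (blue, below the line) relative to the start of the gene model (kb, transcription to the right), with the gene body in black and the window of 50 kb on each side in grey. H3K27ac covers the start of Fabp4, Lpl, Fasn and Scd1, and H3K27me3 covers the start of the other 5 genes and of Lpl.

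Signal here is the number of reads of a region per library, scaled to library size by the authors and then by the median of ratios, and the differences are Old minus Young on the scale of log2(signal + 0.5). A limma test was run on every region of a table and p-values were adjusted over all of them. Of the 31 H3K27ac regions, 0 were called at an adjusted p under 0.05 by limma, edgeR or DESeq2, against 0.0822% of all H3K27ac regions by limma. By limma 2 of the 31 had an unadjusted p under 0.05, against 9.6% of all H3K27ac regions. Of the 28 H3K27me3 regions, 0 were called by limma or edgeR, against 0.488% of all H3K27me3 regions by limma. By limma 4 of the 28 had an unadjusted p under 0.05, against 13.9% of all H3K27me3 regions. DESeq2 gave an adjusted p for 16 of the 28 and called 0 of these. The median difference was 0.0070 over the 31 H3K27ac regions and −0.10 over the 28 H3K27me3 regions, with medians of −0.0028 and −0.0077 over all regions. Scaling by the median of ratios holds the medians over all regions near 0, so a shift common to all regions cannot be seen. Signal as deposited, without the second scaling, moved the median of all regions to −0.12 for H3K27ac and −0.13 for H3K27me3, and the share of regions higher in Old from 49.6% to 33.0% and from 48.6% to 29.1%. Library depth was 2750953 to 5541429 reads for H3K27ac and 3622108 to 9947515 for H3K27me3, with Old replicate 2 the shallowest in both marks, and the median region held 12 to 30 and 28 to 79 reads per library.

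Of the uptake genes, Fabp4 carried the largest H3K27ac region at a start site, 11.5 kb long at chr3:10206001-10217500, covering the exons, introns and coding sequence of the start of the gene and reaching well upstream of it. Its signal was 31.4, 30.6 and 42.4 in the Young libraries and 25.9, 42.5 and 27.01 in the Old libraries. The ages overlapped, and Old replicate 2 lay as high as the highest Young library. The difference was −0.15 (SE 0.17, adjusted p = 0.841, limma). The 3 H3K27me3 regions of the window stood 12.1 to 40.9 kb from the start site, and the nearest upstream of it, 3.5 kb long at chr3:10225001-10228500, differed by 0.37 (SE 0.26, adjusted p = 0.568). A further H3K27ac region of 2.5 kb, 48.9 kb upstream and wholly inside a 49.0 kb H3K27me3 domain over Fabp12, had one of the largest negative differences, −0.78 (SE 0.40, adjusted p = 0.534), with 19, 10 and 15 reads in Young and 14, 2 and 6 in Old, and it was −0.40 without Old replicate 2 and −1.17 without Old replicate 1. The 3.5 kb H3K27ac region 32.1 kb downstream had the largest positive one, 0.39 (SE 0.30, adjusted p = 0.726).

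Lpl was the gene with both marks at its start site. A 3.0 kb H3K27ac region at chr8:68879501-68882500 lay entirely within the 123 kb H3K27me3 domain at chr8:68836001-68959000. H3K27ac signal was 3.59, 8.66 and 6.58 in Young and 3.99, 7.86 and 8.15 in Old, with 10 to 20 reads per library, and did not separate the ages (difference 0.097, SE 0.34, adjusted p = 0.957). The H3K27me3 domain had 252.2, 255.5 and 248.5 in Young and 242.5, 225.2 and 229.5 in Old. All Old libraries were below all Young libraries, but the difference was small, −0.12 (SE 0.080, 95% interval −0.28 to 0.049, adjusted p = 0.540). Since the cells were read in bulk, marks on the same allele and marks in different cells cannot be told apart.

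Cd36 had no H3K27ac region nearer than 74.7 kb to a start site, and its 4 H3K27ac regions lay beyond the end of the gene. The 1.5 kb region at chr5:17739001-17740500 had the largest negative difference of the 31, with signal of 6.21, 3.46 and 4.93 in Young and 1.59, 2.36 and 1.02 in Old. Old libraries lay below Young libraries without overlap, on 19, 6 and 15 reads against 4, 3 and 2, and the difference of −1.33 (SE 0.46) did not pass the test (adjusted p = 0.292). An adjacent region of 0.5 kb held at most 4 reads in a library, and no fold change is given for it. H3K27me3 lay at the start sites of Cd36 in 3 regions. In the 12.5 kb region at chr5:17885001-17897500, over the farthest upstream start site, signal was 21.1, 17.5 and 19.4 in Young and 15.9, 14.8 and 16.2 in Old, with Old below Young in every library (difference −0.30, SE 0.16, adjusted p = 0.412). The regions of 14.5 and 4.0 kb at the other start sites, at chr5:17823001-17837500 and chr5:17845501-17849500, differed by 0.13 (SE 0.16) and 0.11 (SE 0.27), and the ages overlapped. Upstream of the gene, the 14.0 kb region at chr5:17922501-17936500 differed by −0.50 (SE 0.18, adjusted p = 0.206) without overlap of the ages, and the 4.5 kb region at chr5:17905001-17909500 by −0.43 (SE 0.28, adjusted p = 0.514) with overlap. Without Old replicate 2 these differences were −0.24 and −0.16.

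Plin1 carried a 7.5 kb H3K27me3 region at its start sites, chr7:79728001-79735500, covering exons, introns and coding sequence. Signal was 9.88, 10.1 and 13.3 in Young and 8.08, 9.67 and 8.56 in Old. The groups did not overlap, although Old replicate 2 and Young replicate 1 were close, and the difference was −0.31 (SE 0.20, adjusted p = 0.508). H3K27ac stood no nearer than 15.2 kb from the start sites, in the region over Kif7 and in a 9.5 kb region 45.6 kb upstream, which differed by 0.089 (SE 0.12) and 0.086 (SE 0.18).

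Among the secreted products, Adipoq had a 15.5 kb H3K27me3 region at chr16:23144001-23159500 that spanned the whole gene. Its signal was 26.1, 25.4 and 22.5 in Young and 27.3, 15.4 and 18.7 in Old, so that Old replicate 1 was the highest library and the other Old libraries the lowest (difference −0.30, SE 0.18, adjusted p = 0.467). Without Old replicate 2 the difference was −0.12, and without Old replicate 1 it was −0.52. The nearest H3K27ac regions were the Eif4a2 and Rfc4 region, 9.04 kb upstream, and a 1.5 kb region 12.5 kb downstream that shared 500 bp with the end of the H3K27me3 region.

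Lep lay in the 187 kb H3K27me3 domain at chr6:28929501-29116500, the longest of the 28 regions. Its signal was 507.8, 556.1 and 544.3 in Young and 549.4, 565.9 and 483.1 in Old, and the difference of −0.011 (SE 0.079, 95% interval −0.18 to 0.15, adjusted p = 0.968) was the narrowest estimate among start sites. Only 1 H3K27ac region fell in the Lep window, a 2.0 kb region at chr6:29116501-29118500 that began at the base after the domain ended, 56.3 kb downstream of the start site. It had 19, 7 and 14 reads in Young and 4, 5 and 6 in Old. Scaled signal was 6.21, 4.04 and 4.60 in Young and 1.59, 3.93 and 3.06 in Old, all Old libraries lower, and the difference of −0.74 (SE 0.41, adjusted p = 0.577) did not pass the test and was −0.44 without Old replicate 1.

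Cfd had a 5.5 kb H3K27me3 region at chr10:79887001-79892500 that also covered the start site of Elane, a neutrophil elastase gene, so that the signal cannot be divided between the genes. It was 8.49, 9.25 and 8.89 in Young and 5.46, 8.53 and 6.02 in Old, where Old replicate 2 reached the Young range (difference −0.41, SE 0.22, adjusted p = 0.425). The largest H3K27me3 difference of the 28 regions was 41.9 kb upstream of Cfd, in a 3.0 kb region at chr10:79846001-79849000 that the authors' table listed as present in Young only. Signal there was 5.33, 5.63 and 4.18 in Young and 2.40, 2.84 and 1.27 in Old, on 27, 28 and 16 against 11, 5 and 4 reads. The groups did not overlap, and the difference of −1.10 (SE 0.32, adjusted p = 0.112) passed the threshold only for signal as deposited (adjusted p = 0.0442) and without Old replicate 2 (adjusted p = 0.0349) among the alternatives run, whose other adjusted p-values ran from 0.0557 to 0.371. DESeq2 gave no adjusted p for it. The 3.5 kb H3K27me3 region over the start site of Plppr3 differed by 0.25 (SE 0.27, adjusted p = 0.737). The 5 H3K27ac regions of this window lay over Ptbp1, Arid3a, Med16 and other neighbours or between genes, none nearer than 16.1 kb. That over Gm26602, Kiss1r, Med16 and R3hdm4, at chr10:79907001-79919000, differed by 0.31 (SE 0.17, adjusted p = 0.562).

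Of the enzymes of fatty acid synthesis, Fasn carried a 5.5 kb H3K27ac region at chr11:120820001-120825500 with signal of 17.3, 20.8 and 15.5 in Young and 9.57, 15.7 and 17.8 in Old. Old replicate 1 was the lowest library and the ages overlapped (difference −0.34, SE 0.22, 95% interval −0.79 to 0.12, adjusted p = 0.675). Without Old replicate 1 the difference was −0.079, and without Old replicate 3 it was −0.51. A 2.5 kb H3K27ac region 48.0 kb upstream differed by 0.31 (SE 0.42, adjusted p = 0.865). The single H3K27me3 region of the Fasn window, chr11:120838501-120841000, had 2.77, 2.62 and 4.45 in Young and 3.06, 5.69 and 5.07 in Old, and its difference of 0.43 (SE 0.31, adjusted p = 0.568) was the largest positive one of the 28. Scd1 carried a 3.0 kb H3K27ac region at chr19:44406501-44409500 with 8.82, 10.4 and 10.2 in Young and 10.4, 11.8 and 7.64 in Old. The groups overlapped and the difference was 0.0012 (SE 0.26, 95% interval −0.52 to 0.52, adjusted p = 0.999).

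Per kb of region, H3K27ac signal at the start sites averaged 3.29 over the 6 libraries at Scd1, 2.93 at Fasn, 2.89 at Fabp4 and 2.16 at Lpl. The library values were 2.55 to 3.93 at Scd1, 1.74 to 3.78 at Fasn, 2.25 to 3.69 at Fabp4 and 1.20 to 2.89 at Lpl, so that neighbours in this order overlapped. Among all H3K27ac regions at protein-coding start sites, the Scd1, Fasn, Fabp4 and Lpl regions stood at percentiles 90.6, 80.9, 79.7 and 36.7. H3K27me3 per kb averaged 2.86 at Lep and 1.97 at Lpl, percentiles 84.1 and 48.3 of the H3K27me3 regions at start sites. The other 6 start-site regions, at Adipoq, Cfd, Cd36 and Plin1, averaged 1.28 to 1.45, percentiles 7.35 to 17.4. Lep was above Lpl in every library (2.58 to 3.03 against 1.83 to 2.08), and every Lpl value was above those of Adipoq, Cfd, Cd36 and Plin1, whose libraries overlapped at 0.96 to 1.78.

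**Figure D3:**
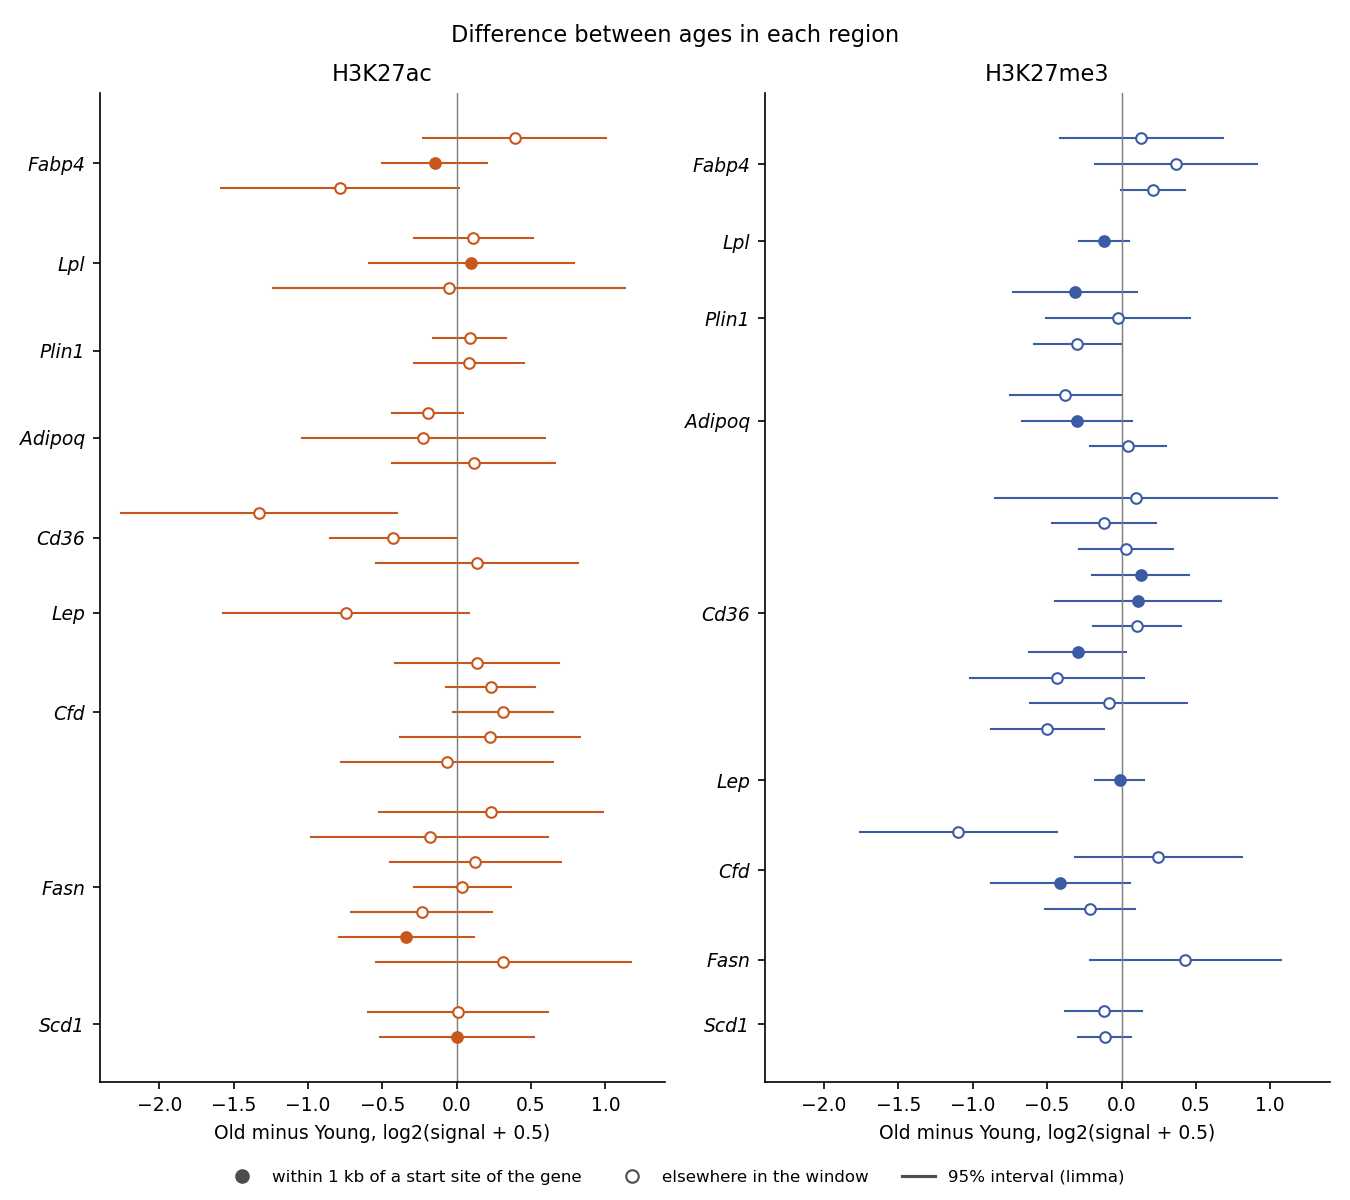
Difference between ages (Old minus Young, log2(signal + 0.5), horizontal axis) of each H3K27ac region (left) and H3K27me3 region (right), ordered by gene and by position, with 95% intervals from limma and filled points for regions at start sites. 2 H3K27ac regions with a mean of at most 3 reads are left out, and the interval of most regions covers 0.

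Counted over the 31 H3K27ac regions, the ages did not overlap in 4, against 14.5% of all H3K27ac regions, which gives a share of 12.9%. In 3 of the 4 Old was below Young, at Cd36 and Lep, and in the other, over Ptbp1 in the Cfd window, Old was above. For H3K27me3 the ages did not overlap in 7 of 28, or 25.0%, against 19.1% of all H3K27me3 regions. In all 7 Old was below Young, against 10.6% of all H3K27me3 regions with Old below Young without overlap. They were the start-site regions of Lpl and Plin1, that over the farthest upstream start site of Cd36, a region elsewhere in each of the windows of Plin1 and Cd36, and 2 in that of Cfd. At the other start-site regions of Cd36 the ages overlapped.

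When the signal of all regions of a window was summed, to give 1 value per gene and library, the same test over all genes with a region called 0 of 9 genes for H3K27ac by limma, edgeR or DESeq2 (0.676% of 17169 genes by limma) and 0 of 9 for H3K27me3 by limma or edgeR (0.438% of 17371 genes by limma), where DESeq2 gave an adjusted p for 8 and called 0. An unadjusted p under 0.05 was found by limma for 2 of 9 genes in H3K27ac, against 12.1% of all genes tested. In H3K27me3 it was found for 3 of 9, against 14.4% of all genes tested. Regions count whole where they cross the edge of the window, and neighbouring genes share regions. Cd36 had 37.2, 21.9 and 30.3 in Young and 21.5, 21.2 and 21.9 in Old for H3K27ac, a difference of −0.43 (SE 0.18, adjusted p = 0.308), with Old libraries tightly grouped just under the lowest Young library, and −0.25 without Young replicate 1. Cfd H3K27ac was 78.4, 78.5 and 71.4 in Young and 85.7, 96.7 and 87.7 in Old, above Young in every library (difference 0.24, SE 0.10, adjusted p = 0.316), from regions over its neighbours. The Lep window held the single region described above. The ages did not overlap in these 3 of 9 genes, against 16.6% of all genes in H3K27ac. The other 6 genes differed by −0.16 (Adipoq) to 0.11 (Lpl).

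H3K27me3 of the windows was lower in Old without overlap in Lpl, Plin1 and Cfd, 3 of 9 genes, against 19.5% of all genes without overlap in either direction and 13.0% with Old below Young. Plin1 had 47.6, 45.9 and 48.1 in Young and 39.3, 39.8 and 39.9 in Old (difference −0.25, SE 0.11, 95% interval −0.47 to −0.024, adjusted p = 0.30), with the 3 libraries of each age close to each other. Cfd had 43.3, 46.9 and 41.1 in Young and 36.5, 39.8 and 32.0 in Old (difference −0.28, SE 0.12, adjusted p = 0.30). Fabp4 differed in the other direction, with 104.1, 115.9 and 88.4 in Young and 117.9, 125.1 and 114.4 in Old (difference 0.22, SE 0.098, adjusted p = 0.312), and overlapped. Most of this sum was the 49.0 kb domain over Fabp12, with a share of 0.19 of its length in the window. The mean signal of that domain was 93.6 of 102.8 in Young and 108.0 of 119.1 in Old. Adipoq, Cd36, Lep and Scd1 differed by −0.11 to −0.011. In the Fasn window the single region had the largest difference, 0.43 (SE 0.30, adjusted p = 0.522). In 7 of 9 genes H3K27me3 was lower in Old, and of all genes tested 59.8% had a lower value.

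**Figure D4:**
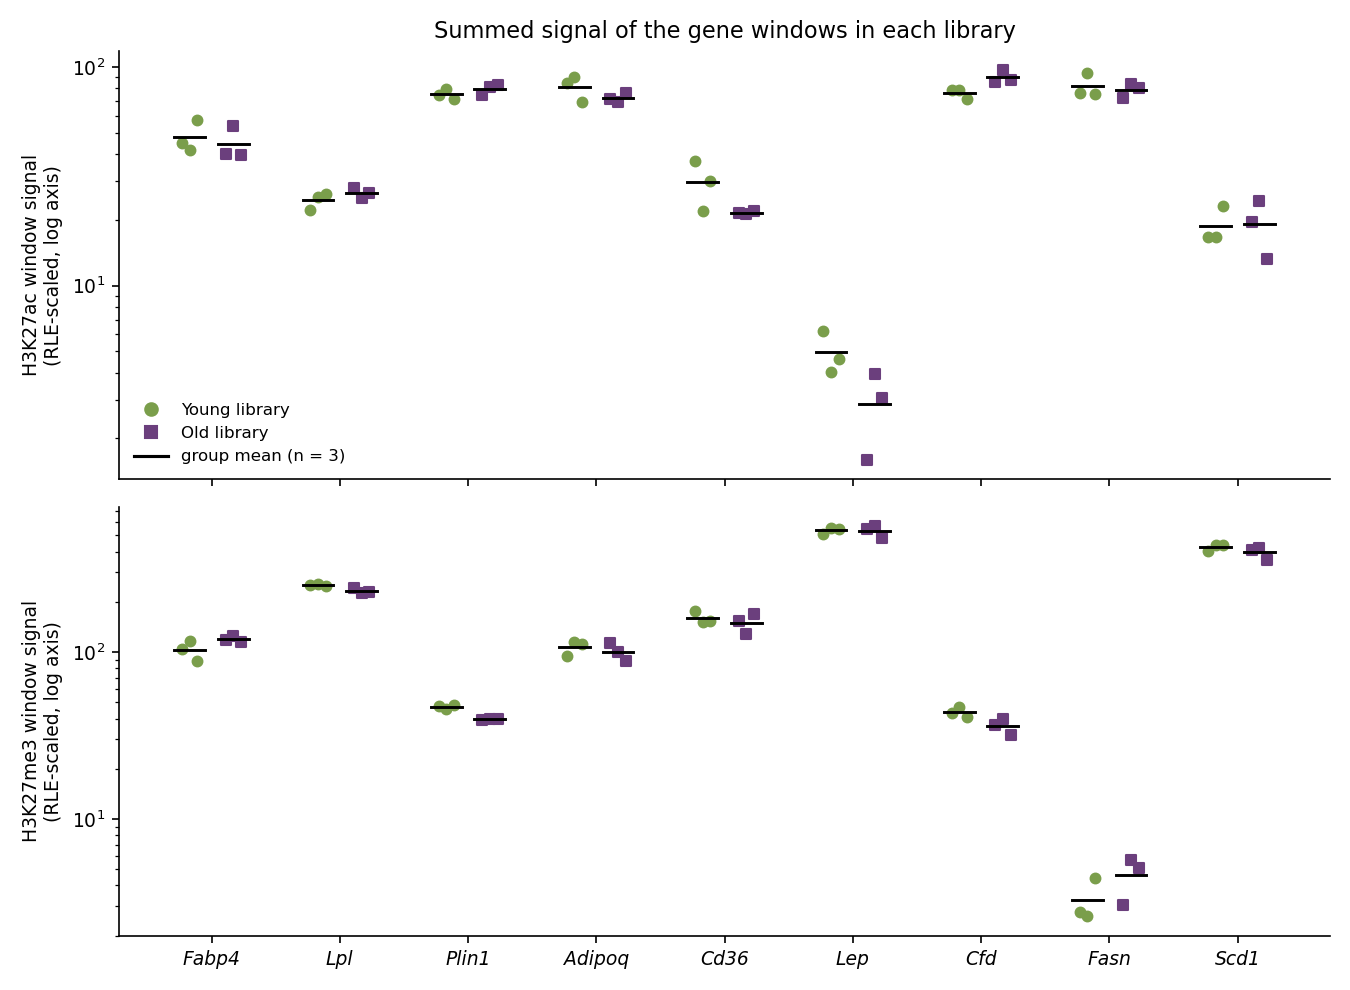
Summed H3K27ac (top) and H3K27me3 (bottom) signal of the window of each gene in every library (log axis, scaled by the median of ratios), with Young as circles, Old as squares and the group mean of 3 libraries as a bar. Old lies below Young without overlap in H3K27me3 of Lpl, Plin1 and Cfd, and in H3K27ac of Cd36 and Lep.

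The balance of the marks, log2 of H3K27ac over H3K27me3 window signal with 0.5 added to each, was taken for each age and sample number and is given without a test, since the tables were normalised separately. Joining the marks by sample number is an assumption: the protocol in the labels splits each sample between the antibodies, but it does not state that equal numbers are the same cells, and the SDs and counts of overlap rest on it. It depends on the covered lengths, 36.5 kb of H3K27ac and 2.5 kb of H3K27me3 at Fasn against 2.0 kb and 187 kb at Lep. Young means ordered the genes from Fasn (4.48 ± 0.49, SD, n = 3) through Cfd (0.79 ± 0.057), Plin1 (0.66 ± 0.12), Adipoq (−0.41 ± 0.26), Fabp4 (−1.09 ± 0.44), Cd36 (−2.44 ± 0.28), Lpl (−3.33 ± 0.13) and Scd1 (−4.49 ± 0.24) to Lep (−6.64 ± 0.36). Cfd and Plin1 overlapped in this order, as the Young values of Plin1 reached 0.79 and those of Cfd began at 0.74. Adipoq and Fabp4 also overlapped, with Adipoq down to −0.68 and Fabp4 up to −0.61. The place of a gene in this order did not follow its start site: Fabp4 and Scd1 had H3K27ac alone there and a negative balance, whereas Cfd and Plin1 had H3K27me3 alone there and a positive one. Much of this signal lay at neighbours. The 113 kb domain over Wnt8b, with a share of 0.40 of its length in the window, gave a mean of 384.2 of 428.1 H3K27me3 at Scd1 in Young. At Fabp4 most H3K27me3 was the domain over Fabp12. All H3K27ac regions of the Cfd and Plin1 windows lay outside these genes.

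Between ages, the balance did not overlap in 4 of 9 genes, against 19.3% of the 15591 genes with both marks. It was higher in Old at Cfd (1.31 ± 0.11 against 0.79 ± 0.057), Plin1 (0.99 ± 0.069 against 0.66 ± 0.12) and Lpl (−3.11 ± 0.025 against −3.33 ± 0.13). Most of the H3K27ac sum at Lpl came from a 13.5 kb region over its neighbour Ints10, with a share of only 0.075 of its length in the window. The mean signal of that region was 16.8 of 24.6 in Young and 18.3 of 26.5 in Old. The balance was lower in Old at Lep (−7.37 ± 0.58 against −6.64 ± 0.36), on the few H3K27ac reads of the Lep window. The differences of the other 5 genes were −0.48 at Fasn, −0.33 at Fabp4, −0.32 at Cd36, −0.057 at Adipoq and 0.10 at Scd1, and their libraries overlapped. The median difference was −0.057 over the 9 genes and 0.062 over all genes with both marks. For signal as deposited the ages did not overlap in 2 genes, and with windows of 10 kb in 1. In windows of 10 kb, Cd36, Lep and Cfd had no H3K27ac region and Fasn no H3K27me3 region, so their balance could not be taken. The share over all genes was not taken for these settings. With windows of 100 kb the difference turned direction at Lpl (−0.017), Lep (0.23) and Fasn (0.15) and was 0.31 at Cfd and 0.43 at Plin1.

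**Figure D5:**
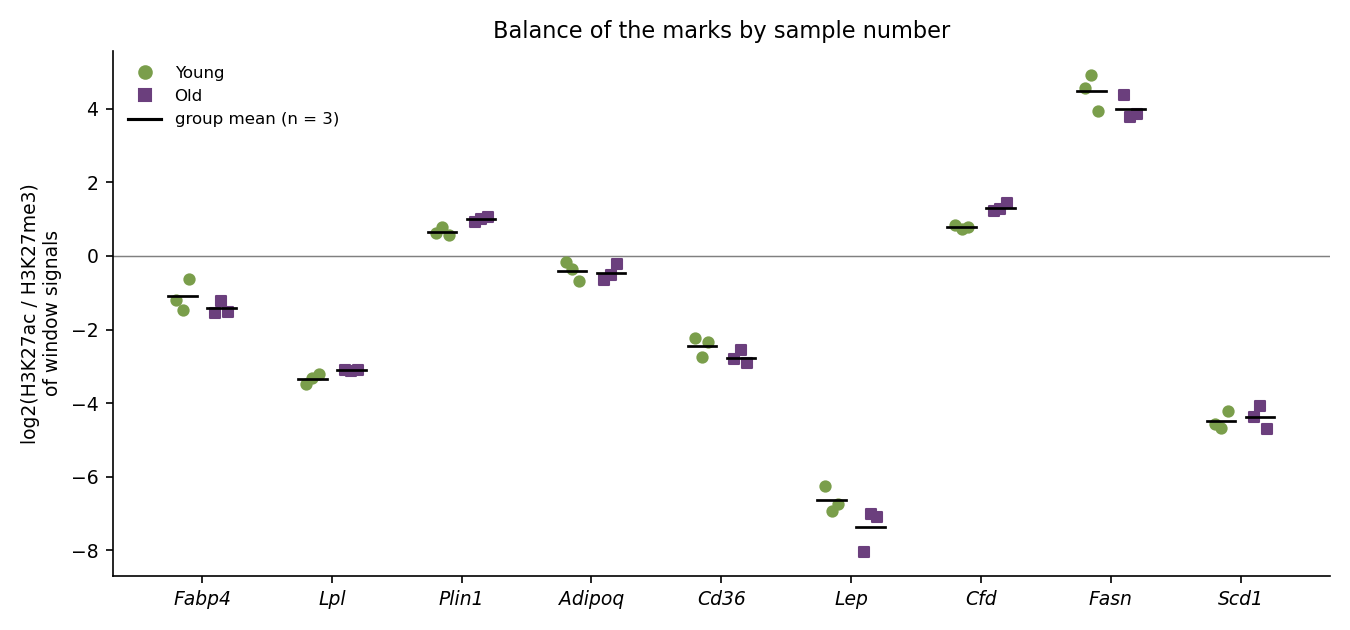
Balance of the marks, log2 of H3K27ac over H3K27me3 window signal (vertical axis), for each gene, age and sample number, with the group mean of 3 as a bar. The genes span from about 4 at Fasn to below −6 at Lep, and Old lies above Young without overlap at Lpl, Plin1 and Cfd and below at Lep.

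Other genes of fat metabolism were taken from 5 lists of related function, 56 genes in all, none of them among the 9. At their start sites, 33 of 56 had H3K27ac only, 12 both marks, 10 H3K27me3 only and 1 (Apln, the ligand apelin) neither. The 10 with H3K27me3 only were Acacb (acetyl-CoA carboxylase 2), the droplet and lipolysis genes Cidea, Cidec, Mgll and Plin5, Gpihbp1 (which anchors lipoprotein lipase in capillaries) and Slc2a4 (the insulin-responsive glucose transporter), the adipokines Rbp4 and Retn, and the regulator Klf15. The adipogenic regulators had H3K27ac at 10 of 11 start sites and the lipogenesis enzymes at 11 of 12, compared with 10 of 12 for uptake genes, 8 of 12 for droplet and lipolysis genes, 6 of 9 for adipokines and their receptors, 4 of 9 for the effector genes and 11722 of 21851 protein-coding genes. None of these shares was tested against another.

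In the windows of these lists, 0 of 56 genes were called in H3K27ac by limma, edgeR or DESeq2, against 0.676% of all genes by limma. By limma 8 of 56 had an unadjusted p under 0.05, against 12.1% of all genes tested. The median difference was 0.030, beside 0.034 over all genes and −0.053 over the effector genes. The gene with the largest difference in each list was Elovl6, a fatty acid elongase, at −0.26 (SE 0.097, adjusted p = 0.217), Lipe, hormone-sensitive lipase, at 0.30 (SE 0.13, adjusted p = 0.314), Aqp7, the glycerol channel, at 0.17 (SE 0.085, adjusted p = 0.399), Apln at −0.18 (SE 0.20, adjusted p = 0.789) and Srebf1, a regulator of lipogenesis, at 0.17 (SE 0.056, adjusted p = 0.152).

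For H3K27me3, 1 of 53 genes with a region was called by each of limma, edgeR and DESeq2, against 0.438% of all genes by limma. By limma 7 of the 53 had an unadjusted p under 0.05, against 14.4% of all genes tested. The called gene was Ebf1, an early transcription factor of the adipocyte lineage, which was higher in Old. Its window had 43.5, 54.5 and 47.6 in Young and 66.4, 87.6 and 66.6 in Old, without overlap (difference 0.59, SE 0.12, adjusted p = 0.0331). It had no region in windows of 10 kb and was not tested there. The call was lost with windows of 100 kb (0.23, adjusted p = 0.258), with regions counted only when 50% lay in the window (adjusted p = 0.299), in limma without trend and robust moderation (adjusted p = 0.225), and without Young replicate 1, 2 or 3 (adjusted p = 0.158, 0.0658 and 0.127) or Old replicate 2 (adjusted p = 0.063). In the other lists the largest differences were −0.35 at Acaca, acetyl-CoA carboxylase 1 (SE 0.18, adjusted p = 0.374), −0.36 at Pnpla2, adipose triglyceride lipase (SE 0.18, adjusted p = 0.355), −0.19 at Gpihbp1 (SE 0.078, adjusted p = 0.285) and 0.18 at Apln (SE 0.26, adjusted p = 0.794). The median was −0.020 over the 53 genes, −0.10 over the 9 effector genes and −0.035 over all genes tested.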

How the data were processed

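H3K27ac and H3K27me3 CUT&RUN of Young and Old MSCs was deposited as 1 table per mark, with 3 libraries per age, and groups came from the sample titles. Per the submitters' processing notes, Bowtie2, Picard and mm10 (GRCm38) were used, with no versions, and the region caller was not given in the sources used here. Regions were called on both ages together in steps of 500 bp. The signal deposited by the authors was reads scaled by library size for a constant length of 0.5 kb, not divided by region length, and 100% of values were whole multiples of 1 read (tolerance 0.01 read), which gave the depth of each library. The publication supplied with the series covers other libraries. The tables held 0 columns that were not used.

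Regions were joined to GENCODE vM21 basic protein-coding genes on GRCm38, where 0 regions passed a chromosome end. RLE scaling (median of ratios) was applied to the columns, a pseudocount of 0.5 went in before the log2 transform, and limma 3.58.1 was used for the fit (trend and robust moderation, two-sided, no filter on low values, R 4.3.3). P-values were adjusted by the Benjamini-Hochberg method over all regions of a mark, or over all gene windows with a region, and a call was an adjusted p under 0.05. In most named regions with few reads, a larger pseudocount gave a smaller fold change. Compared with edgeR and DESeq2, fold changes on this scale were smaller in some of these regions and larger in others. They can therefore understate or overstate the change. Windows with several regions were summed before the fit. edgeR 4.0.16 and DESeq2 1.42.0 were run on the recovered reads, and the fits were tested on simulated data. Named were all 9 genes, their start-site regions, the 3 largest differences of each direction and mark, called genes of the related lists and otherwise the largest difference per list and mark. The genes and lists were chosen with earlier results of these data known. Alternatives were other pseudocounts (0.1 and 2), a minimum of 10 reads, other scalings, tools, window sizes (10 and 100 kb), a replicate block and leaving out each library.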

Additional observations from a re-analysis of the deposited data

How the results depend on the processing

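Over the alternatives run, 0 H3K27ac regions, 0 H3K27ac windows and 0 H3K27me3 windows of the effector genes were called among those tested. With windows of 10 kb, 6 genes could be tested in H3K27ac and 8 in H3K27me3, and DESeq2 gave an adjusted p for 16 of 28 H3K27me3 regions and 8 of 9 H3K27me3 windows. Among H3K27me3 regions, 1 was called for signal as deposited, and the count ran from 0 to 1 when a library was left out (1 without Old replicate 2), each time the region upstream of Cfd. Without Old replicate 2 the calls over all H3K27me3 regions rose from 137 to 313. The count of genes whose balance did not overlap between ages was 2 for signal as deposited. It was 1 with windows of 10 kb, where the balance of Cd36, Lep, Cfd and Fasn could not be taken. When a library was left out the count ran from 4 to 6, but smaller groups overlap less readily. The share over all genes was not taken for these settings, so this range cannot show whether the count holds. Over all regions, the calls were 26 in H3K27ac and 137 in H3K27me3, against 96 and 394 by edgeR, 6 and 87 by DESeq2, 0 and 35 by limma without trend and robust moderation, and 105 and 774 for signal as deposited. Signal as deposited moved the share of windows higher in Old from 60.2% to 25.2% in H3K27ac and from 40.2% to 15.2% in H3K27me3.

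Some directions turned, and the cause was not tested. For signal as deposited, H3K27ac differences became −0.0085 in the Lpl start-site region, −0.11 in that of Scd1, −0.010 in the Lpl window and −0.036 in the Plin1 window, and the H3K27me3 difference of the 4.0 kb Cd36 region became −0.0044. With windows of 100 kb, H3K27ac became −0.11 at Lpl, 0.18 at Lep and 0.092 at Fasn, and H3K27me3 became −0.058 at Fasn. With windows of 10 kb, Apln became 0.093 in H3K27ac. Leaving out a library gave H3K27ac start-site ranges of −0.23 to 0.41 at Lpl, −0.13 to 0.17 at Scd1 and −0.37 to 0.00045 at Fabp4, and −0.056 to 0.74 in the region 48.0 kb upstream of Fasn. H3K27ac windows ranged from −0.11 to 0.048 at Fasn, −0.26 to 0.021 at Fabp4 and −0.20 to 0.23 at Scd1. H3K27me3 ranged from −0.072 to 0.30 in the 4.0 kb Cd36 region, −0.054 to 0.061 at Lep in region and window, −0.038 to 0.38 in the Apln window and −0.19 to 0.0078 in the Cd36 window.

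Whether the sample numbers pair the ages is not known. Deviations of libraries with the same number correlated by −0.078 to 0.066, and those with different numbers by −0.13 to 0.13. With 3 libraries per age these values cannot decide it. With the replicate block, 0 regions and 0 windows of the 9 genes were called in either mark. The calls over all regions were then 81 in H3K27ac and 309 in H3K27me3, against 26 and 137 without the block. With a median of 12 to 30 reads per H3K27ac region, depth limits what could be seen in the short regions.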
